A study of Oryza sativa with 21 samples.

Results

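The 6 loci described here encode enzymes of jasmonate biosynthesis and were picked out of the deposited count table by their identifiers. They were OS08G0508800 (LOX8), its neighbouring 13-lipoxygenase OS08G0509100, OS03G0767000 (AOS1), OS03G0225900 (AOS2), OS03G0438100 (AOC) and OS08G0459600 (OPR7), 6 of 91080 identifiers. The 6 loci were chosen with earlier results of these data known. Their calls set beside the share of all loci are therefore a description. Of the 6, 5 passed the filter on low counts, which kept 21044 loci, and AOS1 did not. The names came with the choice of loci and could not be checked against an annotation, and lipoxygenase numbers differ between naming schemes, so the values belong to the locus identifiers. The identifiers place the LOX pair and OPR7 on chromosome 8 and the other loci on chromosome 3.

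RNA was sequenced from the leaf just below the topmost leaf of rice, Oryza sativa, grown in the field and sampled in the morning at early heading. The 7 lines were the wild type (WT), 3 lines labelled as over-expressing NRP (OE-2, OE-3, OE-4), and 3 lines labelled as CRISPR/Cas9 knockouts of NRP (C-13, C-14 and C-16), with 3 libraries each. The title calls the gene NRP1, a negative regulator of photosynthesis, and the design sets both kinds of line beside WT. The labels give neither the cultivar, the promoter of the transgene, the edits, nor whether each line comes from its own transformation.

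Jasmonates are lipid-derived hormones of wounding, defence, flower development and leaf senescence. In the chloroplast a 13-lipoxygenase adds oxygen to linolenic acid, allene oxide synthase (AOS) and allene oxide cyclase (AOC) turn the product into 12-oxophytodienoic acid, and in the peroxisome a reductase (OPR) and rounds of beta-oxidation complete jasmonic acid. The hormone acts after conjugation to isoleucine, when the receptor COI1 marks JAZ repressors for breakdown and so frees transcription factors such as MYC2. In many plants jasmonate raises the transcripts of its own biosynthesis enzymes.

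Library totals ranged from 13788243 to 19032786 counts. Levels are given in CPM, counts relative to library totals adjusted by TMM. No gene lengths were used, so levels are compared between lines and not between loci. NRP1 (OS07G0471900, a locus taken from general knowledge) was at 2.46 CPM in WT, 288, 365 and 345 CPM in the OE lines in that order, and 2.18 to 3.30 CPM in the CRISPR line means, so its counts did not separate CRISPR from WT. OE-3 replicate 1 and WT replicate 3 stood at the ends of the second principal component, which held 16.8% of the variance. No label says that replicates are separate plants, and the p-values therefore describe the spread between these libraries, which may be technical. In bulk leaf RNA, fewer cells of a type and less RNA per cell cannot be told apart. The summed level of 3 mesophyll marker loci was 49648 to 64177 CPM in WT, 42237 to 60113 CPM in OE and 61188 to 69430 CPM in CRISPR libraries. Most of that sum was 1 locus, OS11G0707000. It alone was at 47858 to 61458 CPM in WT, 40185 to 57572 CPM in OE and 58175 to 65396 CPM in CRISPR libraries. In CRISPR against WT 1 of the 3 mesophyll loci was called higher, as were 1 of 2 guard cell loci and the 1 root marker locus. Of 4 vascular loci 2 were tested and 1 was called higher. Over all tested loci 5.34% were called higher. The root marker stood at 17.8 to 34.8 CPM over all libraries. Markers of seed and panicle summed to 0.187 to 1.25 CPM, with 1 of 2 at 0 throughout. Of the 4 vascular markers 1 was at 0 throughout, and OS09G0422500 stayed at or below 0.0605 CPM. Both markers of dividing cells stayed at or below 0.491 CPM. The part of these differences in the results for the 6 loci was not tested.

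Across the 7 lines, both lipoxygenase loci at the head of the pathway were lower in CRISPR leaves, and the loci of the later steps were not called in any comparison between genotypes. A locus is called where the adjusted p of edgeR's quasi-likelihood test, adjusted over all loci tested, is under 0.05. Against WT, 2 of the 6 loci were called lower in the CRISPR lines and 0 higher, where 11.7% of all tested loci were called in either direction and 6.37% lower. The median log2 fold change of the 5 tested loci was -0.92, beside 0.01 over all tested loci. That median is the estimate of the called locus OS08G0509100 itself. AOS2, with few counts, was at -1.73 and not called, and AOC and OPR7 lay above 0, at 0.32 and 0.10. The median therefore does not describe a fall of all 5 loci. In the OE lines against WT 0 of the 6 were called, where 4.67% of all loci were. DESeq2 called none in that comparison either, and 3 of the 5 had an unadjusted p under 0.05 in edgeR, as did 21.3% of all loci. In the direct comparison of 3 OE lines with 3 CRISPR lines, which uses no WT library, 2 of the 6 were called, both higher in OE, where 17.4% of all loci were called and 9.71% were higher in OE. All 5 estimates lay above 0 there, with a median of 0.12, beside 0.01 over all loci. The uncalled ones were small, at 0.07 for AOS2, 0.08 for AOC and 0.12 for OPR7, and their intervals held 0. The sign changed for AOS2 in 11 of 29 alternatives and for AOC without line OE-3. The OE and CRISPR contrasts with WT share the same 3 WT libraries.

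**Figure D1:**
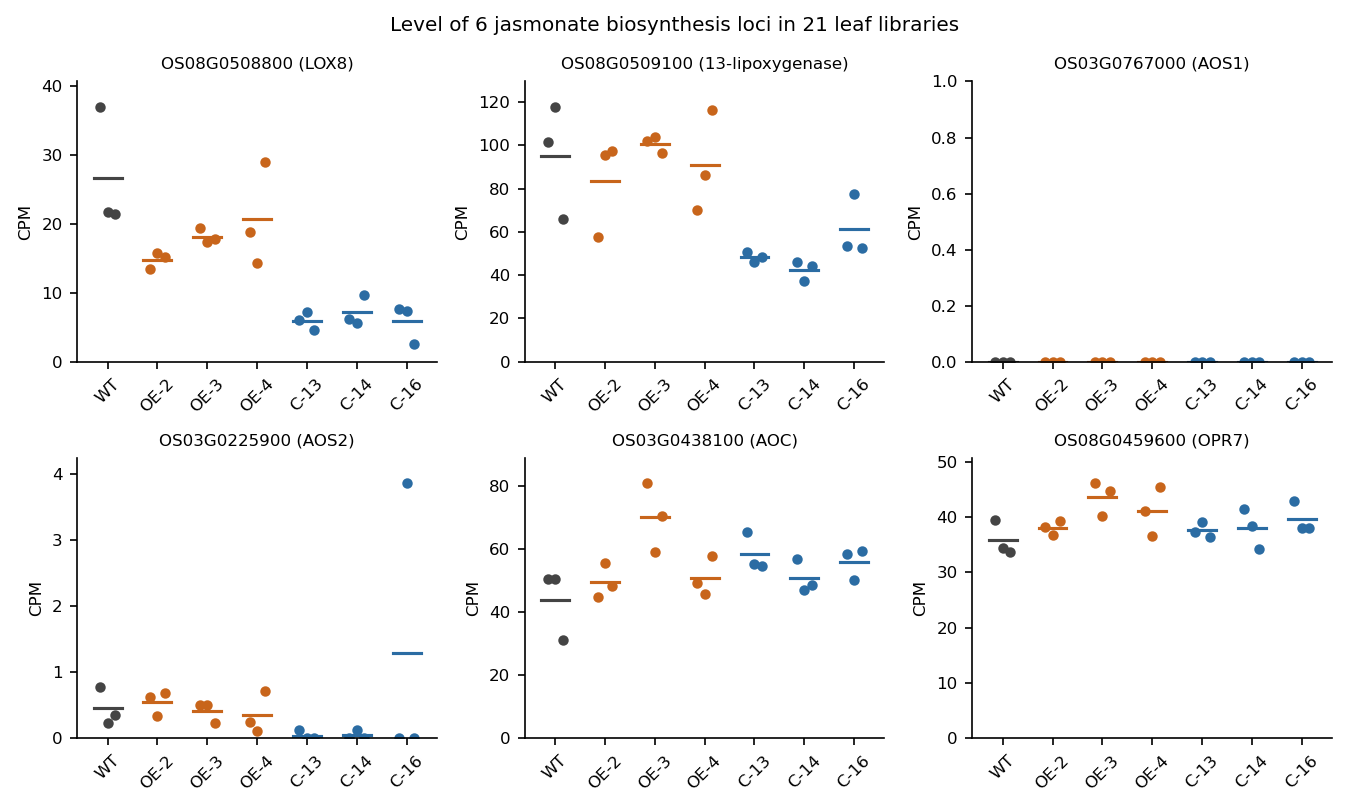
Level of the 6 jasmonate biosynthesis loci in each of 21 leaf libraries, in CPM on a linear axis from 0, by line. Each point is 1 library and each bar the mean of 3. For OS08G0508800 the CRISPR libraries lie at 2.65 to 9.72 CPM, below every WT and OE library. AOS1 is at 0 throughout, and 1 C-16 library stands apart for AOS2.

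LOX8 (OS08G0508800) encodes a lipoxygenase of the first step. Its levels in WT replicates 1, 2 and 3 were 36.9, 21.7 and 21.5 CPM. In the 9 CRISPR libraries it lay between 2.65 and 9.72 CPM with a median of 6.21 CPM. In the 9 OE libraries it lay between 13.5 and 29.0 CPM with a median of 17.4 CPM. Every CRISPR library was therefore below every WT and every OE library, which was so for 4.61% of all tested loci against WT and for 3.16% against OE. C-13 had 5.98 ± 1.3 CPM, C-14 had 7.19 ± 2.2 CPM and C-16 had 5.90 ± 2.8 CPM, against 26.7 ± 8.9 CPM in WT (mean ± SD over 3 libraries). No difference among the 3 CRISPR lines was called (edgeR F test, adjusted p = 0.996), a test that called 0.442% of all loci.

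CRISPR leaves held 0.237-fold the WT level of LOX8 as a mean over the lines (log2 fold change -2.07, SE 0.23, 95% interval -2.56 to -1.59, edgeR adjusted p = 1.72e-05). It was called lower in each line, with log2 fold changes of -2.16 for C-13, -1.89 for C-14 and -2.17 for C-16 (edgeR adjusted p = 0.000781, 0.00199 and 0.000598). The call against WT held in all 31 alternative settings, with estimates from -2.23 to -1.76, the weakest without WT replicate 1. The OE lines held 2.84-fold the LOX8 level of the CRISPR lines (a log2 difference of 1.5 with SE 0.14, edgeR adjusted p = 0.00103), and this call held in all 30 alternatives.

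In the OE lines LOX8 was not called. OE-2 had 14.8 ± 1.2 CPM, OE-3 had 18.2 ± 1.1 CPM and OE-4 had 20.7 ± 7.5 CPM (mean ± SD over 3 libraries). The OE estimate against WT was -0.59 (95% interval -1.09 to -0.10, edgeR adjusted p = 0.147), on the same side of 0 as that of the CRISPR lines. No single OE line was called, with log2 fold changes of -0.85 for OE-2, -0.56 for OE-3 and -0.37 for OE-4. The order of line means ran from WT through OE-4, OE-3, OE-2, C-14 and C-13 to C-16. Neighbours in that order had overlapping ranges except OE-3 with OE-2 and OE-2 with C-14.

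OS08G0509100, the neighbouring 13-lipoxygenase locus, was also lower in the CRISPR lines. Its WT replicates 1, 2 and 3 were at 101, 118 and 66.0 CPM. The 9 CRISPR libraries lay between 37.1 and 77.5 CPM and the 9 OE libraries between 57.5 and 116 CPM. Only 1 CRISPR library, C-16 replicate 2 at 77.5 CPM, reached into the range of WT or OE. C-13 had 48.5 ± 2.3 CPM, C-14 had 42.6 ± 4.8 CPM and C-16 had 61.2 ± 14 CPM, against 95 ± 26 CPM in WT (mean ± SD over 3 libraries).

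The CRISPR lines held 0.528-fold the WT level of OS08G0509100 (log2 fold change -0.92, SE 0.17, 95% interval -1.28 to -0.57, edgeR adjusted p = 0.00201). This genotype call held in all 31 alternatives, with estimates from -1.13 to -0.76. Its adjusted p-values reached 0.04999 there, barely under the threshold. C-14 was called at -1.16 and C-13 at -0.97 (edgeR adjusted p = 0.00616 and 0.0136). The C-14 call ended in a fit of only the 6 libraries compared (adjusted p = 0.0505). C-16 was not called at -0.64 (edgeR adjusted p = 0.0829), and the F test among the CRISPR lines gave an adjusted p of 0.83. Without C-16 replicate 2 the C-16 estimate was -0.84 and was called (edgeR adjusted p = 0.0433), as it was without WT replicate 3 (adjusted p = 0.0253). The C-13 call ended without WT replicate 1 (adjusted p = 0.0717) and without C-13 replicate 3 (adjusted p = 0.0548).

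For OS08G0509100 OE-2 had 83.5 ± 23 CPM, OE-3 had 101 ± 3.7 CPM and OE-4 had 90.8 ± 23 CPM (mean ± SD over 3 libraries). All 3 ranges overlapped that of WT, and the OE estimate was -0.06 (95% interval -0.42 to 0.31, edgeR adjusted p = 0.891). The OE lines held 1.85-fold the level of the CRISPR lines (a log2 difference of 0.89 with SE 0.14, edgeR adjusted p = 0.00546). In the order OE-3, WT, OE-4, OE-2, C-16, C-13, C-14 of the line means, C-16 and C-13 were the neighbours whose ranges did not overlap.

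Because both lipoxygenase loci lie side by side, their ratio within a library was also taken, which does not depend on library scaling. In WT replicates 1, 2 and 3 there were 36.5, 18.4 and 32.5 reads of OS08G0508800 for every 100 reads of OS08G0509100. In OE libraries there were 15.7 to 26.8, and in CRISPR libraries 5.05 to 21.9. The libraries of the genotypes overlapped, but the line means did not: the lowest OE line had a mean log2 ratio of -2.47 and the highest CRISPR line -2.60. The mean log2 ratio was -2.36 ± 0.17 over 3 OE lines and -3.04 ± 0.45 over 3 CRISPR lines (SD over lines), a difference of 0.68 (exact two-sided permutation test over lines, p = 0.1, the smallest that 20 splits can give). The WT mean was -1.84. No source used here says how reads shared by similar neighbours were counted, so the split of reads between the pair is uncertain.

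**Figure D2:**
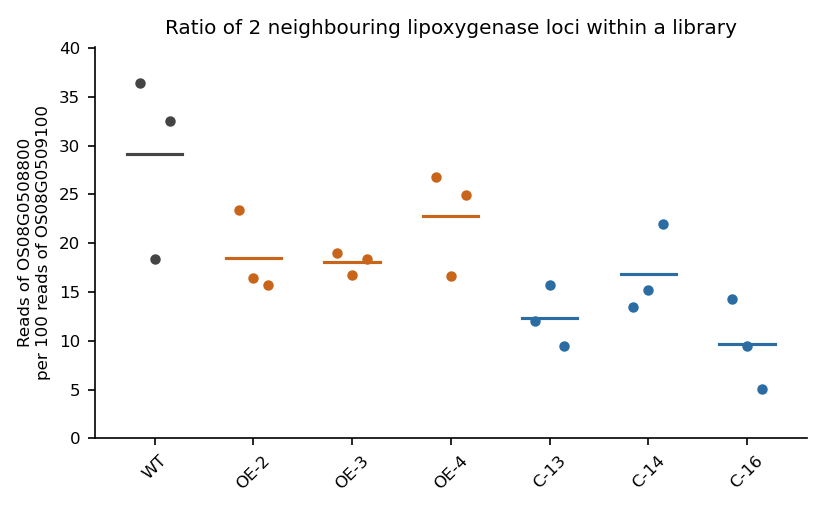
Reads of OS08G0508800 per 100 reads of OS08G0509100 in each library (points, linear axis from 0) with the mean of each line (bars). WT libraries span 18.4 to 36.5, and C-16 replicate 3 is the lowest at 5.05.

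Allene oxide synthase, the cytochrome P450 of the second step, was hardly counted. AOS1 (OS03G0767000) had 0 counts in all 21 libraries, 347290543 counts in all. A count of 0 allows up to 3 counts in a library, or 0.148 to 0.213 CPM depending on its total. The next identifiers in the table's order, OS03G0766950 and OS03G0767500, had 0 to 1 and 2627 to 4003 counts per library. Of 91080 identifiers, 61.8% had no count in any library, and of 37830 identifiers of the OS form 21% had none. AOS1 was therefore not tested.

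AOS2 (OS03G0225900) was counted at a few reads per library. WT replicates 1, 2 and 3 held 15, 4 and 5 counts. The 9 OE libraries held 2 to 11 counts each. Of the 9 CRISPR libraries 6 held 0, C-13 replicate 1 and C-14 replicate 2 held 2 each, and C-16 replicate 2 held 55. That library alone gave 93.2% of all CRISPR counts of AOS2, and the other 8 held 4 counts together. It was also the highest CRISPR library for OS08G0509100, while its LOX8 level of 7.36 CPM lay within the range of the other CRISPR libraries. C-13 and C-14 each stood at 2 counts against 24 in WT, ratios after library scaling of 0.0819 (95% counting interval 0.00938 to 0.330) and 0.0886 (0.0102 to 0.357). C-16 went the other way, at a ratio of 2.52 (1.54 to 4.26), with all 55 counts from replicate 2. The intervals cover counting error only.

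AOS2 was not called against WT in the CRISPR lines (log2 fold change -1.73, edgeR adjusted p = 0.355) or the OE lines (-0.13, adjusted p = 0.957), nor between OE and CRISPR lines (0.07, adjusted p = 0.971). The CRISPR against WT and OE against CRISPR values turned on C-16 replicate 2. Without it the CRISPR lines were called lower than WT at -4.19 (edgeR adjusted p = 0.00633) and OE lines higher than CRISPR lines at 3.74 (adjusted p = 0.00500). Without the whole line C-16 the values were -3.32 (adjusted p = 0.0197) and 3.36 (adjusted p = 0.0205). The C-16 estimate itself went from 1.42 to -5.97 without that library. Such fitted fold changes from counts near 0 are no bounds.

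AOC (OS03G0438100), the enzyme that sets the stereochemistry of the hormone's ring, was not called in either genotype. WT replicates 1, 2 and 3 were at 50.4, 50.4 and 31.2 CPM. OE-3 was highest, at 80.9, 59.1 and 70.7 CPM, and all 3 of its libraries lay above all 3 of WT, as was so for 15.5% of all loci. The other lines had means of 49.7 CPM for OE-2, 51.0 for OE-4, 58.5 for C-13, 50.9 for C-14 and 56.1 for C-16, and neighbours in the order of means overlapped throughout. OE-3 was 1.59-fold WT (log2 fold change 0.67, SE 0.16, edgeR adjusted p = 0.00772). That call ended without OE-3 replicate 1 (adjusted p = 0.0547) and in a fit of only the 6 libraries compared (adjusted p = 0.111).

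The genotype estimates for AOC were 0.35 in OE (95% interval 0.07 to 0.63, edgeR adjusted p = 0.131) and 0.32 in CRISPR against WT (0.04 to 0.60, adjusted p = 0.123). Between OE and CRISPR lines the estimate was 0.08 (95% interval -0.24 to 0.39, adjusted p = 0.734). The F test over all 7 lines called AOC (adjusted p = 0.0397), where it called 36.7% of all loci, and that call ended in 11 of 25 alternatives. Among the 3 OE lines the F test gave AOC an adjusted p of 0.0661, and it called 9.82% of all loci. AOC was called there without WT replicate 3 (adjusted p = 0.0188), without OE-3 replicate 2 (adjusted p = 0.0307) and with no filter (adjusted p = 0.0282).

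OPR7 (OS08G0459600), the peroxisomal reductase, lay between 33.7 and 46.1 CPM over all 21 libraries. WT replicates 1, 2 and 3 were at 39.4, 34.4 and 33.7 CPM. OE-3 was again highest, at 46.1, 40.2 and 44.7 CPM. It was 1.22-fold WT (log2 fold change 0.28, SE 0.10, edgeR adjusted p = 0.0497), a value just under the threshold that lay above it in 17 of 27 alternatives, up to 0.205. The OE estimate was 0.19 (95% interval 0.02 to 0.36, adjusted p = 0.184) and the CRISPR estimate 0.10 (-0.07 to 0.27, adjusted p = 0.453). The F test over all lines did not call OPR7 (adjusted p = 0.227).

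By line, the number called among the 6 loci was 2 higher in OE-3, where 18.9% of all loci were called and 7.81% higher. OE-2 and OE-4 had 0 each, by edgeR and by DESeq2, beside 2.04% and 0.58% of all loci, with 1 and 0 at an unadjusted p under 0.05, beside 17.3% and 6.78% of all loci. C-13 and C-14 had 2 lower each, beside 6% and 3.16% of all loci called and 3.7% and 1.37% called lower. C-16 had 1 lower, beside 6.38% called and 3.29% called lower. The loci called in OE-3 were AOC and OPR7, and those called in the CRISPR lines were the lipoxygenase pair.

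**Figure D3:**
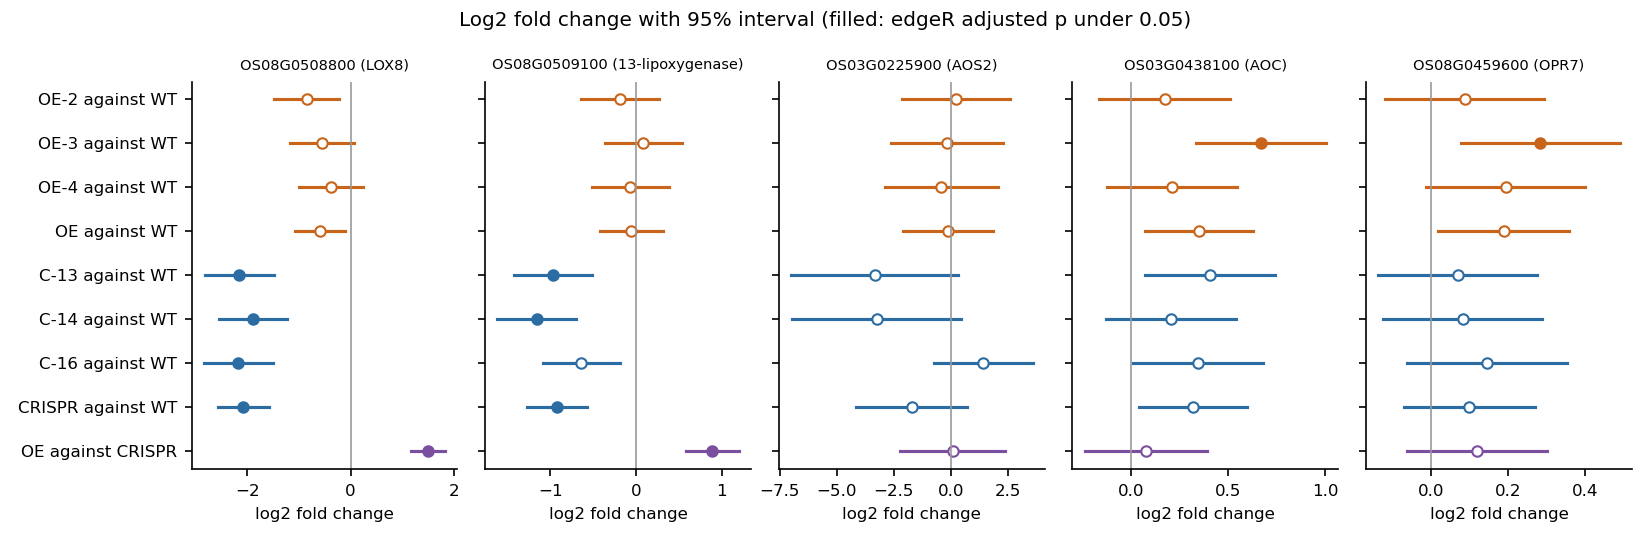
Log2 fold change (point) with its 95% interval (line) for the 5 tested loci in 9 comparisons; filled points have an edgeR adjusted p under 0.05. Each panel has its own axis range. The filled points are LOX8 and OS08G0509100 against WT in CRISPR lines and between OE and CRISPR lines, and AOC and OPR7 in OE-3. The line C-16 is open for OS08G0509100.

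Over the 21 libraries, log2 CPM of both lipoxygenases had a Pearson correlation of 0.79, and of 0.41 once each line's mean was removed. AOC and OPR7 had 0.68 over libraries and 0.56 within lines. LOX8 had -0.14 with AOC and 0.19 with OPR7. These correlations are a description over libraries that share lines and scaling.

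Among 21043 other tested loci, those with a pattern over the 21 libraries most like that of LOX8 were OS01G0850550, OS11G0514400 and another locus, each with a correlation of 0.91. Both named loci were picked for a pattern like that of LOX8, so their CRISPR estimates against WT, -3.22 and -2.44 on the log2 scale, are a description with no test. OS08G0509100 ranked 365th in likeness to LOX8, and LOX8 ranked 101st in likeness to OS08G0509100. The files do not describe these other loci.

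Other loci of the same enzyme families and of further steps were read from lists written from general knowledge. The lists could not be checked against an annotation, and whether each family member acts in jasmonate synthesis was not tested. They held 48 loci in all, of which 32 were tested against WT. In the OE lines 0 were called higher and 1 lower, and in the CRISPR lines 1 higher and 1 lower, with median log2 fold changes of -0.06 and 0.02. Over all loci 4.67% were called in the OE lines, 3.19% lower, and 11.7% in the CRISPR lines, so these counts did not stand above the share of all loci. Between OE and CRISPR lines 34 were tested, 2 were higher and 4 lower in OE, with a median of 0.03, where 9.71% and 7.65% of all loci were higher and lower.

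Among the other lipoxygenases 1 locus rose in the CRISPR lines, OS02G0194700. It stood at 399, 829 and 851 CPM in WT, at 145 to 496 CPM in OE (median 391) and at 1278 to 2058 CPM in CRISPR libraries (median 1654). Every CRISPR library was above every other library, where 4% of all loci had CRISPR above WT and 2.76% had CRISPR above OE in this way. It was 2.33-fold WT in the CRISPR lines (log2 fold change 1.22, edgeR adjusted p = 0.0154), a call that ended without WT replicate 1 (adjusted p = 0.106), and its estimate was -1.0 in OE lines (adjusted p = 0.0402), a call that ended in 13 of 31 alternatives, with adjusted p-values up to 0.285. The OE lines held 0.222-fold the CRISPR level (a log2 difference of -2.17 with SE 0.13, edgeR adjusted p = 0.000191), and this call held in all 30 alternatives.

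OS12G0559200, listed with it, lay at 73.1 to 120 CPM in WT, 66.4 to 138 CPM in OE and 100 to 354 CPM in CRISPR libraries. The OE lines held 0.529-fold the CRISPR level (edgeR adjusted p = 0.0120), and against WT the CRISPR estimate of 0.84 was not called (adjusted p = 0.0902), although it was without C-16 replicate 2 (0.94, adjusted p = 0.0461). Of 10 other lipoxygenases listed, 8 were tested and 4 were lower in OE than in CRISPR lines, with 0 higher, where 7.65% of all loci were lower. That count was 2 to 5 over 30 alternatives, and 2 without OE-3 replicate 2, line C-13 or line C-16. The remaining ones, OS03G0179900 at 0.824-fold and OS03G0700400 at 0.381-fold, were chosen after their values were seen.

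**Figure D4:**
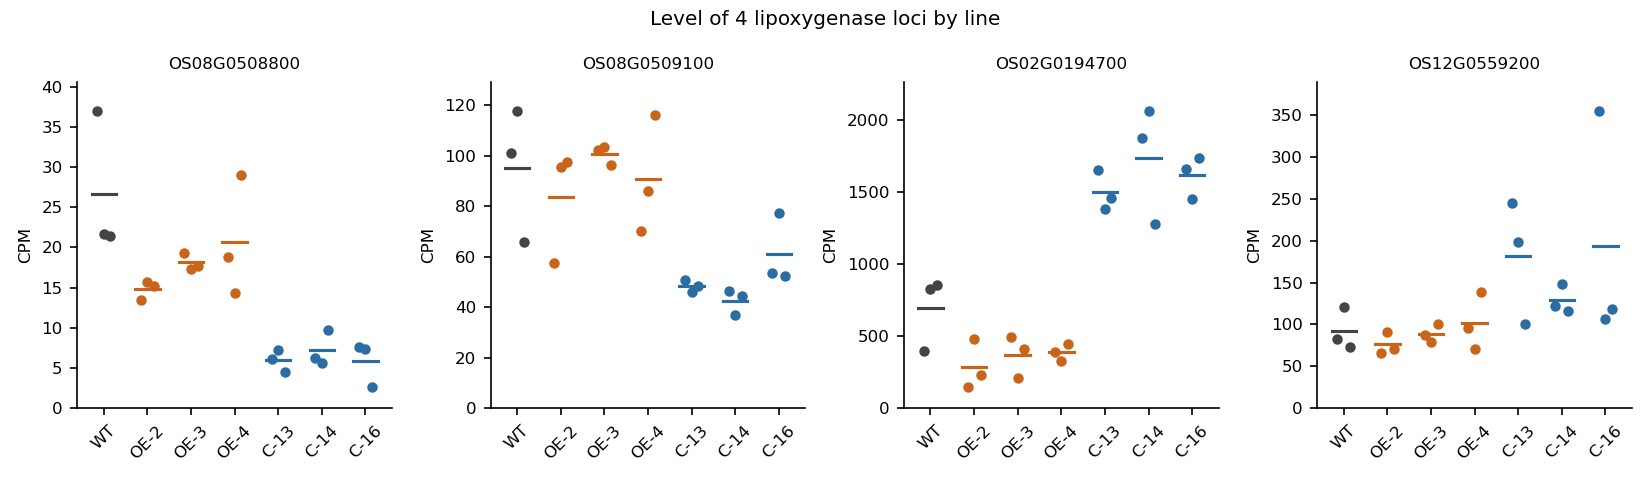
Levels of 4 lipoxygenase loci by line, in CPM on linear axes from 0 with a range for each panel; points are libraries and bars are means of 3. OS08G0508800 and OS08G0509100 are lower in the CRISPR lines, OS02G0194700 is higher there (1278 to 2058 CPM), and the ranges of OS12G0559200 overlap between genotypes.

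In the other lists for synthesis, 0 of the 3 other CYP74 loci (the enzyme family of allene oxide synthase) passed the filter. Of 8 other reductases listed 3 were tested against WT with 0 called, where 4.67% of all loci were called in OE and 11.7% in CRISPR lines. In the list for beta-oxidation all 6 loci were tested. OS02G0274100 of that list lay at 109 to 123 CPM in WT, 84.5 to 133 CPM in OE and 77.3 to 94.0 CPM in CRISPR libraries. It was 0.728-fold WT in the CRISPR lines (edgeR adjusted p = 0.0032), a call that ended with counts summed per line (adjusted p = 0.141), and 1.33-fold higher in OE than in CRISPR lines (adjusted p = 0.0225). The latter call ended without line C-13, C-14 or C-16 and without OE-3 replicate 3, with adjusted p-values up to 0.0932. No other locus of the list was called between genotypes. The count was thus 1 of 6 lower in CRISPR against WT, beside 6.37% of all loci. It was 1 of 6 higher in OE against CRISPR lines, beside 9.71% of all loci.

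Downstream of the hormone, conjugation and turnover had 2 of 4 listed loci tested and 0 called between genotypes. Over all loci 4.67% were called in OE and 11.7% in CRISPR against WT, and 17.4% between OE and CRISPR lines. OS01G0221100 was at -0.82 between OE and CRISPR lines (edgeR adjusted p = 0.114). All 4 perception loci were tested. OS01G0853400 was 1.19-fold higher in OE than in CRISPR lines (edgeR adjusted p = 0.0357), where 9.71% of all loci were higher. That call ended in 10 of 30 alternatives, with adjusted p-values up to 0.152. Of 13 JAZ repressor loci, whose transcripts jasmonate is known to raise, 9 were tested against WT. In the mean of the OE or of the CRISPR lines 0 were called, beside 4.67% and 11.7% of all loci. The medians were 0.17 and 0.19. By line, 1 of the 9 was called higher in OE-3, where 7.81% of all loci were. It was OS04G0653000, at 0.43 on the log2 scale (edgeR adjusted p = 0.0074). In that line 8 of 9 estimates lay above 0, with a median of 0.29. In OE-4 and C-16 all 9 estimates lay above 0, with medians of 0.33 and 0.38. There 0 were called, beside 0.58% and 6.38% of all loci. For several of these loci 1 library stood apart. OS09G0439200 was at 1.43, 1.25 and 8.14 CPM in OE-4 replicates 1, 2 and 3, and at 6.56, 2.52 and 1.95 CPM in those of C-16. OS03G0402800 was at 72.8, 61.6 and 135 CPM and at 101, 54.0 and 58.6 CPM. OS09G0401300 in C-16 did not show this, at 153, 143 and 154 CPM. The perception locus OS05G0449500 was also called higher in OE-3, at 0.34 (adjusted p = 0.0140), 1 of 4 tested, beside the same 7.81% of all loci. In the genotype contrasts with WT the lowest adjusted p among the JAZ loci was that of OS04G0653000 in the CRISPR lines, at 0.19 on the log2 scale (edgeR adjusted p = 0.154).

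In a list of 5 defence loci, 3 were lower in the mean of the CRISPR lines and 0 higher, where 6.37% of all loci were lower. The median log2 fold change was -0.78. By line 3 were called lower in C-13, 2 in C-16 and 0 in C-14, beside 3.7%, 3.29% and 1.37% of all loci. In C-14 all 5 estimates lay below 0, with a median of -0.59. In the OE lines 0 of 5 were called, beside 4.67% of all loci. OS12G0555000 lay at 36.8 to 63.8 CPM in WT, 31.6 to 78.7 CPM in OE and 8.78 to 29.0 CPM in CRISPR libraries, so that CRISPR lay below both, as did 4.61% of all loci against WT and 3.16% against OE. Its log2 fold change against WT was -1.52 (edgeR adjusted p = 0.00335). OS01G0194300 fell to 0.583-fold (adjusted p = 0.000636), although not with counts summed per line (adjusted p = 0.0530). Both were also higher in OE than in CRISPR lines. These loci were known from earlier results of these data.

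**Figure D5:**
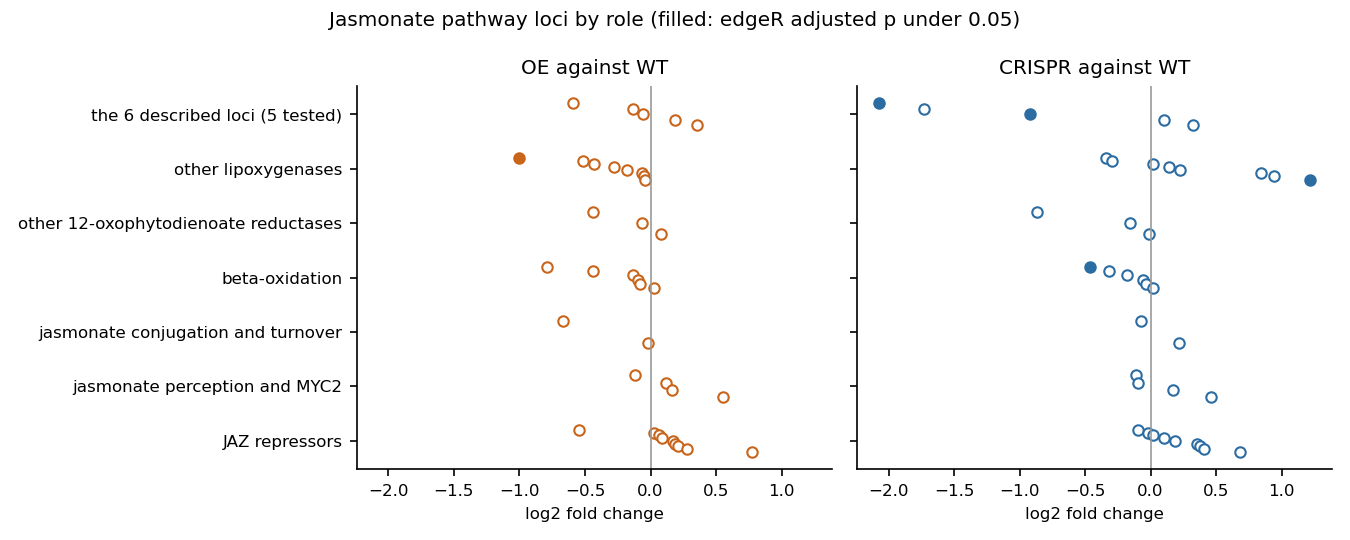
Log2 fold change of each tested pathway locus by role, for OE against WT (left) and CRISPR against WT (right); filled points have an edgeR adjusted p under 0.05. In the CRISPR lines the pair OS08G0508800 and OS08G0509100 lies left of 0, OS02G0194700 right of 0 at 1.22, and all 9 JAZ loci are open.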

How the data were processed

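The deposited data are whole-number read counts of 91080 identifiers in 21 leaf libraries. The submitters' processing notes name the tools STAR 2.5.3a, FastQC, Trim Galore and DESeq2 and the build IRGSP-1.0. No source used here names the read counter, its use of strand or its handling of reads with several positions, which leaves counts of similar, overlapping or antisense loci uncertain.

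The deposited counts were tested with edgeR 4.0.16 in R 4.3.3 (filterByExpr with a minimum count of 10, TMM, quasi-likelihood test), 1 model for 7 lines, with Benjamini-Hochberg adjustment over 21044 loci and a threshold of 0.05. Genotype contrasts set the mean of 3 lines against WT, so their error is the spread between libraries. OE and CRISPR lines were compared on counts summed per line, over 22553 loci. Intervals of 95% used the t quantile of the fit, and SE is the absolute log2 fold change over the square root of F. Correlations used log2 CPM with a prior count of 2, and the lipoxygenase ratio added 0.5 to each count. The procedure was first tested on simulated counts. No pair of replicates agreed within sampling noise.

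The 6 loci and the lists were chosen with earlier results of these data known. All 6 were named in every comparison, with up to 2 loci per list by smallest adjusted p. The 3 loci most like each called member were also picked. Of these only 2 are printed, both for LOX8, and none for OS08G0509100. Alternatives were another normalization (DESeq2 size factors), no or a stricter filter (mean of at least 5 CPM), DESeq2 1.42.0, the replicate number as a block, a fit of only the libraries compared, summed counts per line, and leaving out each line and each library.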

Additional observations from a re-analysis of the deposited data

Results flagged for a closer look

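Within a genotype, 1 library stood far from the other 8 for 3 of the 6 loci. For LOX8 (OS08G0508800) it was OE-4 replicate 3, at 29.0 CPM, with the next OE library at 19.4 CPM. For OS08G0509100 it was C-16 replicate 2, at 77.5 CPM, with the next CRISPR library at 53.7 CPM. For AOS2 (OS03G0225900) it was again C-16 replicate 2, at 3.86 CPM, with the next at 0.130 CPM. The gap to the nearest library exceeded Dixon's 95% critical value in these 3 of 12 groups checked. Dixon's rate of 1 in 20 groups assumes independent, normally distributed values. Each group pooled libraries of 3 lines, and AOS2 was at 0 in most CRISPR libraries. That rate therefore does not apply here, and the flags are a description.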

How the results depend on the processing

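Of 1255 estimates for the 6 loci under alternatives, 1196 kept their direction and their side of the threshold, 22 lost a call, 8 gained one and 29 changed sign, the last all uncalled before and after. The number of the 6 loci called was 0 in OE against WT under all 31 alternatives, and 2 to 3 in both CRISPR against WT and OE against CRISPR. In OE-3 the 2 calls became 1 with no filter, 0 with only the libraries compared, and 0 to 2 with a library left out. In C-16 the 1 call became 2 with no filter and with DESeq2, and 1 to 2 with a library left out. In C-14 the 2 calls became 1 with only the libraries compared, and C-13 had 1 to 2 with a library left out. For OE against CRISPR, a fit of only the libraries compared is the reported one.

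Replicate numbers showed no clear pairing of libraries across lines. Deviations of same-numbered libraries correlated at 0.00915 on average (-0.306 to 0.243), and those of different-numbered ones at -0.00453 (-0.244 to 0.314). Of 21 libraries 10 correlated best with their own number, a count that was not tested. With the replicate block no call of the 6 loci changed, and OS02G0194700 in OE against WT lost its call (-0.99, edgeR adjusted p = 0.0553). The DESeq2 size factors moved the median of all loci by at most -0.0144 on the log2 scale.

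Estimates that changed sign, with their range when 1 library was left out, were these. AOS2 (OS03G0225900) had -0.10 to 0.92 in OE-2, -0.50 to 0.51 in OE-3, -1.32 to 0.26 in OE-4, -5.97 to 2.11 in C-16, -0.45 to 0.56 in OE against WT and -0.42 to 3.74 in OE against CRISPR. Without line OE-4 its OE against WT estimate was 0.0285, and OE against CRISPR was -0.13 without line OE-2, -0.49 without C-13 and -0.47 without C-14. OS08G0509100 had -0.39 to 0.0227 in OE-2, -0.12 to 0.28 in OE-3, -0.28 to 0.12 in OE-4 and -0.26 to 0.13 in OE against WT, and 0.00797 there without line OE-2. AOC (OS03G0438100) had -0.0205 to 0.28 in OE-2, and -0.12 in OE against CRISPR without line OE-3. In OE against WT, OS12G0559200 had -0.20 to 0.18 (0.0436 without line OE-2), OS01G0194300 had -0.23 to 0.00758 and OS12G0555000 had -0.12 to 0.27 (-0.0271 without line OE-4). The cause was not tested.

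Over all loci the number called depended on the setting. It was 429 in OE-2 (163 to 1067 over alternatives), 3971 in OE-3 (161 to 4562), 122 in OE-4 (49 to 181), 1262 in C-13 (222 to 1738), 666 in C-14 (137 to 1229) and 1342 in C-16 (331 to 1886). It was 983 in OE against WT (16 to 2220), 2464 in CRISPR against WT (306 to 3040) and 3916 in OE against CRISPR (1545 to 8910). The other listed loci called, those for defence left out, numbered 0 to 3, 1 to 3 and 2 to 12 in these last comparisons. AOS2 rests on a few counts per library, which limits its precision, and why AOS1 had none was not tested.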
